A study of Homo sapiens with 4 samples.

Results

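The 85 genes described here encode the protein components of the cytosolic ribosome. They were taken from the 33538 genes counted in each library as the protein-coding genes whose symbol is RPL or RPS followed by a number, together with RPLP0, RPLP1, RPLP2 and RPSA, without the copy on the Y chromosome. Of these, 53 carry a large subunit symbol (RPL) and 32 a small subunit symbol (RPS). By symbol, 77 are the core genes and 8 are paralogues of a core gene (RPL3L, RPL7L1, RPL10L, RPL22L1, RPL26L1, RPL36AL, RPL39L and RPS27L). They were chosen by symbol and not by a measured value, although earlier results of these data were known.

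Single-cell RNA sequencing (scRNA-seq) had been carried out on HCEC 1CT, an immortalised line of human colonic epithelial cells, which had been transduced with a virus for an shRNA that targets APC (shAPC) or for a scrambled control shRNA (shScr) and were then grown in puromycin. APC is a scaffold of the complex that degrades beta-catenin, and the study used its knockdown as a model of early colorectal cancer. Cells of each shRNA were harvested at day 3 and at day 7 after transduction, which gives 4 groups. Each group was 1 library of 1 line, so the spread between cultures is unknown, no difference has a replicate check and no p-value is given.

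Each ribosome holds 1 copy of nearly every core protein, and the cell makes the large and the small subunit in matched amounts, so the mRNAs of these genes are among the most abundant in growing cells and are usually regulated together. Most of them begin with a cytosine followed by an unbroken run of pyrimidines, the terminal oligopyrimidine (TOP) element, through which mTOR signalling sets their translation. MYC, a target of beta-catenin in the colonic epithelium, is known to raise their transcription. The paralogues are encoded by separate genes, and some of them, such as RPL3L in muscle and RPL10L in the testis, are known for expression in few tissues.

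The start sites below show the element that most core genes shared and that some paralogues lacked. Each line gives 15 bases before and 15 bases from the start that RefSeq annotates (GRCh38.p14, 5′ to 3′ on the strand of the gene), and capitals mark a run of at least 5 pyrimidines that opens with a cytosine no more than 5 bases from that start. These windows lie at chr1:153990747-153990776 (plus strand) for RPS27, chr15:63157463-63157492 (minus) for RPS27L, chr17:8383179-8383208 (minus) for RPL26, chr5:172958714-172958743 (plus) for RPL26L1, chr1:6199581-6199610 (minus) for RPL22, chr3:170870181-170870210 (minus) for RPL22L1, chrX:101390996-101391025 (plus) for RPL36A, chr14:49620612-49620641 (minus) for RPL36AL, chr12:120201097-120201126 (minus) for RPLP0 and chr14:49598696-49598725 (minus) for RPS29.
RPS27: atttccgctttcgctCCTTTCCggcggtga
RPS27L: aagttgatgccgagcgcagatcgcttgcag
RPL26: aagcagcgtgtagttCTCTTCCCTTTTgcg
RPL26L1: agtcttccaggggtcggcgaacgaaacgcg
RPL22: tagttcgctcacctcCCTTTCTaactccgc
RPL22L1: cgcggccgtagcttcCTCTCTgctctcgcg
RPL36A: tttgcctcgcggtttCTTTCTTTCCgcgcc
RPL36AL: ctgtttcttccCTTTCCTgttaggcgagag
RPLP0: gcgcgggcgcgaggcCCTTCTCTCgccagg
RPS29: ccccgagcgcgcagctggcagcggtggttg

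RefSeq start sites were found for 68 of the 85 genes. Such a run lay at a start of 53 of 62 core genes (85.5%) and of 2 of 6 paralogues (RPL22L1 and RPL36AL), against 25.2% of the 27305 genes with a start site. RPS27L, RPL26L1, RPL7L1 and RPL10L were the paralogues without one, and RPS29 was among the core genes without one at its annotated start. In the window of 250 bases before and 50 after the start, on both strands, CCGGAAG (a core of ETS family sites) was found in 35.5% of core genes and 12.2% of all genes, GGGCGG (a core of SP1 sites) in 58.1% and 48.3%, AAGATGGC (within YY1 sites) in 9.68% and 3.52%, and TATAAA in 8.06% and 14.0%. A match is a string of letters in a window and not evidence that a factor bound there.

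After barcodes were limited to those with at least 200 genes, 500 UMIs (unique molecular identifiers, each standing for 1 captured transcript) and under 5% mitochondrial UMIs, 788 to 2600 cells and 28451455 to 39797418 UMIs were kept per library. Cells were shallow in shScr day 7, with a median of 1330 UMIs against 21029.5 to 49685.5 in the others. Both day 3 libraries shared 19 kept barcodes (2.41% of the smaller library), and the other pairs of libraries shared 1 to 7. APC stood at 16.1 CPM (counts per 1000000 kept UMIs of the library) in shScr day 3 and 5.52 in shAPC day 3, and at 19.1 and 6.61 in the same order at day 7. Of the markers of colonic epithelium, CDX2 and KRT20 had 0 UMIs in all 4 libraries (a count of 0 allows up to 3 UMIs, or 0.0754 to 0.105 CPM in these libraries), EPCAM, CDH1 and VIL1 had 0 to 2 UMIs, KRT8 lay at 9.57 to 19.4 CPM and KRT18 at 3.02 to 7.13 CPM. The mesenchymal genes VIM (4010 to 5303 CPM), FN1 (2758 to 3676 CPM) and COL1A1 (927 to 1519 CPM) were abundant in all of them, so the defining markers of the labelled epithelial type were absent or low.

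Ribosomal protein genes were a large part of the RNA counted in every library. Their share was 35.0% in shScr day 3, 30.1% in shAPC day 3, 35.2% in shScr day 7 and 37.3% in shAPC day 7. The libraries thus differed most within shAPC, which had the lowest share at day 3 and the highest at day 7, while both shScr libraries lay within 0.111 percentage points of each other. As a log2 ratio, shAPC against shScr was -0.22 at day 3 and 0.09 at day 7, day 7 against day 3 was 0.31 in shAPC, and in shScr it was 0.0046 (95% counting interval 0.0034 to 0.0058).

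Both subunits took part in these shares in the same proportion. Large subunit genes made up 57.8% of the ribosomal protein UMIs in shScr day 3, 58.0% in shAPC day 3, 57.6% in shScr day 7 and 58.0% in shAPC day 7. The 10 genes with the most UMIs held 26.2% to 27.8%. The paralogues together held 0.333%, 0.306%, 0.286% and 0.231% of all UMIs in the same order of libraries, so they were lowest in the library in which the core genes were highest.

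The share also moved with the depth of a cell. In the shallowest class (500 to under 2000 UMIs) the genes held 22.8% to 25.4% of the summed UMIs of a library, and in cells of at least 30000 UMIs they held 30.1% to 38.1%. The median over kept cells was 32.5% in shScr day 3, 29.1% in shAPC day 3, 27.0% in shScr day 7 and 34.8% in shAPC day 7. By this measure shScr day 7 was the lowest library, and 53.9% of its cells were in the shallowest class against 14.6% to 26.5% of the cells of the others. Within the deepest class the medians were 34.9%, 30.7%, 37.8% and 39.6%, again with shAPC lowest at day 3 and highest at day 7.

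**Figure D1:**
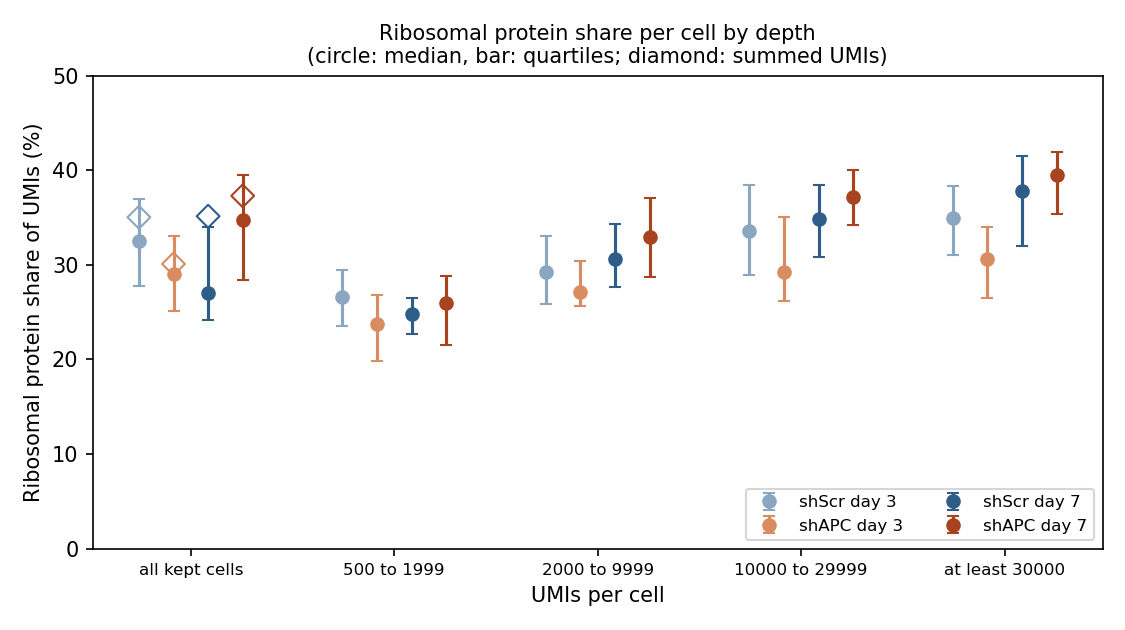
Share of UMIs from ribosomal protein genes (percent, vertical axis) for all kept cells and by UMIs per cell (horizontal axis), with circles at the median over cells, bars at the quartiles and diamonds at the share of the summed UMIs. The share was lower in shallow cells of every library, and shAPC day 3 lay below shScr day 3 in each class while shAPC day 7 lay above shScr day 7.

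At matched depth the log2 ratio of the summed share, shAPC against shScr at day 3, was -0.16 in cells of 500 to under 2000 UMIs, -0.04 from there to under 10000, -0.13 from there to under 30000 and -0.23 at 30000 or more. At day 7 it was 0.01, 0.15, 0.09 and 0.06 in the same classes. The direction of the summed share was thus the same in all 4 classes at each day, but its size depended on depth. At day 7 it was near 0 (0.0089) in cells of 500 to under 2000 UMIs. In that class the members' median was -0.015, and 36 of 77 core genes were above 0 and 41 below. The third class held only 37 cells of shAPC day 3. Mitochondrial UMIs were 3.47%, 3.37%, 3.47% and 3.87% of the kept totals, and barcodes that the mitochondrial limit removed had ribosomal protein shares of 30.1%, 28.4%, 33.6% and 35.2%, which keep the order of the libraries. Barcodes removed by that limit numbered 1551 in shAPC day 7 against 245 to 1052 in the others. With a limit of 10% in place of 5%, the log2 ratio of the share at day 7 was 0.062 instead of 0.086, and the members' median relative to all genes was 0.060 instead of 0.14. With all deposited barcodes they were 0.065 and 0.062.

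Levels ranged widely among the core genes. RPL41, a peptide of the large subunit, led with 11040 CPM in shScr day 3, 10655 in shAPC day 3, 11265 in shScr day 7 and 12878 in shAPC day 7. RPS18 (10492, 9619, 11609 and 12328 CPM), RPS2 (10031, 8518, 11840 and 12182), RPLP1 (9089, 8345, 9715 and 9579) and RPL13A (8633, 7383, 9632 and 11032) followed. All of these were lowest in shAPC day 3, and all but RPLP1 were highest in shAPC day 7. The median core gene had 3707, 3112, 3911 and 3996 CPM in the order of libraries used above. A UMI counts a transcript end and not a stretch of transcript, so these levels were not divided by length.

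RPL17 was the core gene of the lowest level, at 262, 185, 230 and 276 CPM. Its locus overlaps the read-through gene RPL17-C18orf32, to which 5 to 18 UMIs per library were assigned, and reads that fit both genes are not counted for either, so its level is uncertain. RPL36A overlaps RPL36A-HNRNPH2 in the same way. The reference annotation also holds 1600 processed pseudogenes named for these genes, of which RPL21 has 133, and 0 of them were among the counted genes, so that reads from such copies, if any, could have been assigned to the parent gene.

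At day 3, all 77 core genes were lower in shAPC than in shScr over the summed UMIs of all kept cells, by 0.03 (RPL35) or more on the log2 scale, and none of them was higher with TMM scaling, with DESeq2 size factors or with totals that left out mitochondrial and member genes. Within depth classes this was so in the deepest alone, and 9 of the 77 were above 0 in cells of 500 to under 2000 UMIs, 26 from there to under 10000 and 15 from there to under 30000. Ratios here are differences of log2(CPM + 1) for genes that reached 20 CPM in either library of a pair, which 83 of the 85 genes passed (RPL3L and RPL10L did not). The median of the 83 was -0.23 with an SD across genes of 0.17, whereas the median of all 5175 genes at that level was 0.28, so that relative to all genes the members' median was -0.50. Of these 5175 genes, 79.2% were above 0 on total UMIs. A gene is counted below as higher or lower when its ratio was at least 0.32 from 0 on the log2 scale and its 95% counting interval excluded 0.

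On the scale of total UMIs, 18 of the 83 were counted as lower (4.75% of all genes were) and 1, RPL26L1, as higher (43.8% of all genes were). Relative to the median of all genes, 78 of the 83 were lower (17.4% of all genes) and 0 higher (16.3% of all genes). In cells of 10000 to under 30000 UMIs these counts were 12 and 1, and the members' median relative to all genes was -0.14. With a level of at least 100 CPM, 51 were lower. The shares of all genes under these limits are not given, so these counts cannot be set against them. Over all kept cells, the 5 of the 83 that were not lower relative to all genes were RPL35 and the paralogues RPS27L, RPL7L1, RPL39L and RPL26L1. Most genes stayed near the common value, with 75 of 83 within 0.25 of the members' median, where 56.0% of all genes lay within that distance of their own median. Those at least 0.5 away were 3 of 83, the paralogues RPL39L and RPL26L1 among them, against 16.1% of all genes.

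Among the lowest genes at day 3 were RPL17 (-0.50, from 262 to 185 CPM) and RPL3 (-0.48, from 4716 CPM in shScr to 3373 in shAPC), which lies at the peptidyl transferase centre of the large subunit. RPL3 stood at 4682 CPM in shScr day 7 and 5250 in shAPC day 7, a log2 ratio of 0.17. The stalk proteins, which recruit elongation factors to the large subunit, were all below 0 at day 3, and 1 of the 3, RPLP0, was counted as lower. RPLP0 had 3039, 2366, 3911 and 3996 CPM, and its ratio was -0.36 at day 3 and 0.03 at day 7. RPLP2 had 5916, 5286, 5505 and 5663 CPM, with ratios of -0.16 and 0.04, and RPLP1 had ratios of -0.12 and -0.02.

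RPL5 and RPL11 form with the 5S rRNA a particle that can bind and inhibit MDM2, the ligase that degrades p53. RPL5 had 1947 CPM in shScr day 3, 1496 in shAPC day 3, 1831 in shScr day 7 and 1932 in shAPC day 7. RPL11 had 4457, 3635, 4823 and 4397 CPM. Both were lowest in shAPC day 3, with log2 ratios of -0.38 and -0.29 at that day. At day 7 their ratios were 0.08 and -0.13, both nearer to 0 than that limit.

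At day 7 the ribosomal protein genes as a group were close to shScr, with a median of 0.04 (SD across genes 0.18) against -0.10 for all 4573 genes, or 0.14 relative to all genes. On total UMIs 55 were above 0 and 28 below, where 37.7% of all genes were above 0. The core genes above 0 numbered 55 of 77 on this scale, 52 with TMM, 48 with DESeq2 size factors and 68 with the totals that left out members and mitochondrial genes. Counted as higher were 7 of 83 (9.62% of all genes) and as lower 3 of 83 (24.0% of all genes), which were the paralogues RPL26L1, RPL39L and RPL36AL. Relative to the median of all genes 11 were higher (15.0% of all genes) and 2, RPL26L1 and RPL39L, lower (15.9%), and only RPL26L1 was at least 0.5 from the members' median (13.7% of all genes). Within 0.25 of the members' median lay 70 of 83, against 57.2% of all genes about theirs.

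The genes highest at day 7 were small subunit genes of short coding length. RPS27, a zinc finger protein of the small subunit, had 8159 CPM in shScr day 3, 7135 in shAPC day 3, 5282 in shScr day 7 and 7499 in shAPC day 7. It was lowest in shScr day 7 and differed less among the other 3. Its log2 ratio was 0.51 (0.50 to 0.51) at day 7 and -0.19 at day 3. RPS29 had 7855, 6920, 3924 and 5199 CPM and RPS28 had 7201, 6247, 5211 and 6896 CPM, both with the lowest level in shScr day 7. Their ratios at day 7 were 0.41 and 0.40.

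**Figure D2:**
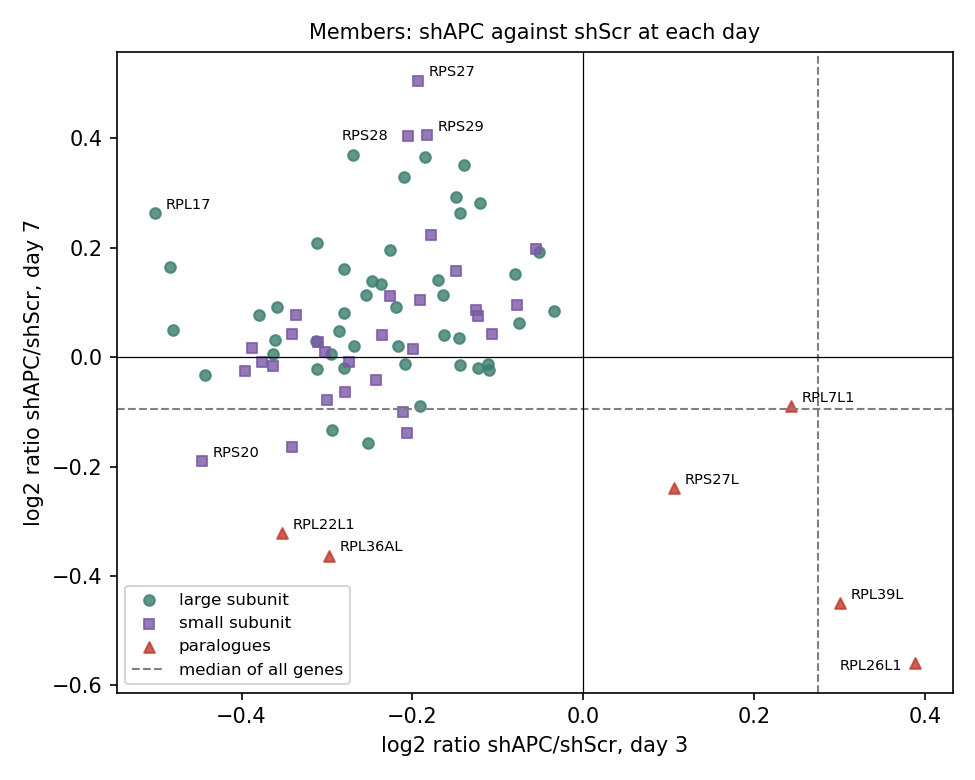
Log2 ratio of CPM, shAPC against shScr, at day 3 (horizontal axis) and day 7 (vertical axis) for 82 of the 83 genes of sufficient level, with dashed lines at the median of all genes. The core genes plotted lie left of 0, from -0.50 for RPL17 to -0.03 for RPL35, and all 6 paralogues lie below 0 at day 7.

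Across the 77 core genes, the ratios at day 3 and day 7 had a Pearson r of 0.24 and a Spearman rho of 0.32. These comparisons share no library, but genes are not independent replicates and the values share depth and kit, so the coefficients are descriptive. The levels themselves were alike, with r of 0.95 to 0.99 between the log2 CPM of the libraries compared. The direction in shAPC thus differed between the days for the group as a whole, and with 1 library per group this difference was not tested.

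Between day 3 and day 7, the share of summed UMIs in shScr was nearly equal, but single genes within it differed. Averaged over cells instead, the log2 ratio of the share was -0.15, and the median over cells was 27.0% at day 7 against 32.5% at day 3. The median ratio of the members was 0.05, equal to the 0.05 of all 4556 genes. The SD across members was 0.31, against 0.17 and 0.18 in the comparisons of shAPC with shScr. It was no larger than the SD of 0.33 across all genes. Within 0.25 of the members' median lay 65 of 83, against 60.9% of all genes about theirs. Counted as higher at day 7 were 4 of 83 (16.3% of all genes), namely RPL39L, RPL26L1, RPLP0 and RPS13, and as lower 11 of 83 (12.0%). Relative to all genes the counts were 2 higher (11.9% of all genes), RPL26L1 and RPL39L, and 12 lower (14.9%). At least 0.5 from the members' median were 11 of 83, against 10.4% of all genes, and they included RPS29, RPL37, RPL37A, RPL38, RPS21, RPS27, RPS27L, RPS28 and RPL36A below it and RPL39L above it.

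RPS29, a zinc-binding protein of the small subunit, was the lowest of these, with a log2 ratio of -1.0 (-1.01 to -0.99) between the CPM given above. RPL37, also zinc-binding, had 4419 CPM in shScr day 3, 3986 in shAPC day 3, 2506 in shScr day 7 and 3069 in shAPC day 7. RPL37A, another zinc-binding protein of the large subunit, had 9240, 8130, 5454 and 7031 CPM. All 3 were highest in shScr day 3, and both day 7 libraries lay below both day 3 libraries. The ratio of day 7 to day 3 was -0.82 for RPL37 and -0.76 for RPL37A in shScr, and -0.38 and -0.21 in shAPC.

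RPL38 (3025, 2782, 1830 and 2224 CPM) and RPS21 (3286, 2905, 2021 and 2360 CPM) showed the same order, with day 7 below day 3 under each shRNA. In shScr their ratios were -0.72 and -0.70. RPS27 and RPS28 had ratios of -0.63 and -0.47 in shScr but 0.07 and 0.14 in shAPC, and RPL36A (795, 688, 577 and 725 CPM) had -0.46 and 0.08. In the other direction, RPLP0 was the highest core gene of both comparisons of days, with 0.36 in shScr and 0.76 in shAPC.

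For 3 of these genes the ratio in shScr is given by depth. For RPS29 the ratio of day 7 to day 3 was -1.0, -0.77, -0.91 and -1.0 from the shallowest to the deepest class, for RPL37 it was -1.01, -0.65, -0.74 and -0.88, and for RPS27 it was -0.61, -0.41, -0.51 and -0.60. All 3 were below 0 in every class. UMIs per cell were far fewer in shScr day 7 than in shScr day 3, and whether depth bears on these ratios was not tested.

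In shAPC, the ribosomal protein genes were higher at day 7 than at day 3, with a median of 0.32 (SD 0.30) against -0.34 for all 5176 genes, or 0.66 relative to all genes. Counted as higher were 41 of 83 (4.73% of all genes) and as lower 5 of 83 (51.5% of all genes), namely RPS27L, RPS29, RPL26L1, RPL37 and RPL38. Relative to all genes 70 were higher (19.1%) and 1, RPS27L, lower (18.6%). At least 0.5 from the members' median were 9 of 83 (19.6% of all genes), all below it, namely RPS27L, RPS29, RPL26L1, RPL37, RPL38, RPL22L1, RPS21, RPL7L1 and RPL37A. The highest were RPLP0 (0.76), RPL34 (0.70, from 4919 to 7988 CPM) and RPL7 (0.69, from 2546 to 4103 CPM). RPL34 and RPL7 stood at 5931 and 3461 CPM in shScr day 3 and at 6185 and 4195 CPM in shScr day 7.

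Of the core genes in shAPC, 69 were above 0 and 8 below on total UMIs, and 74 were above 0 with TMM or DESeq2 size factors. Of all genes, 18.2% were above 0 on total UMIs. RPS29 (-0.41), RPL37 (-0.38) and RPL38 (-0.32) remained below 0 with TMM, at -0.11, -0.07 and -0.02, whereas RPL37A turned to 0.09 and RPS21 to 0.0042. These 5 genes were the lowest of the core in shAPC under every scaling, but the direction of RPL37A and RPS21 between the days depended on it. In shScr the same 5 genes were below -0.70 on total UMIs and with TMM.

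Most of the members at least 0.5 from the members' median between the days were short. Ordered by coding length into 4 groups, the core genes of 75 to 375 bases had a median ratio of day 7 to day 3 in shScr of -0.10, against 0.08, 0.09 and 0.11 in those of 384 to 456, 468 to 612 and 624 to 1281 bases. In shAPC the medians were 0.12, 0.34, 0.36 and 0.48. Genes outside the list of the same lengths did not show this order, with 0.13, 0.19, 0.15 and 0.09 in shScr and -0.20, -0.30, -0.32 and -0.36 in shAPC.

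Against log2 coding length, the ratio of day 7 to day 3 had a Pearson r of 0.47 in shScr and 0.51 in shAPC across the 77 core genes, and -0.08 and -0.11 across 2566 and 2797 other genes. The ratio of shAPC to shScr had r of -0.49 at day 3 and -0.52 at day 7, and 0.10 and 0.06 in other genes. The 4 comparisons share libraries and so are not separate observations. RPL41, of 75 bases, was the shortest gene and lay above the median of the shortest group, with 0.03 in shScr and 0.27 in shAPC. RPL39 (153 bases) lay above that median in shAPC, with 0.32, but below it in shScr, with -0.17. Within the deepest cells the medians by length in shScr were -0.07, 0.12, 0.14 and 0.19, in the same order as over all cells.

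**Figure D3:**
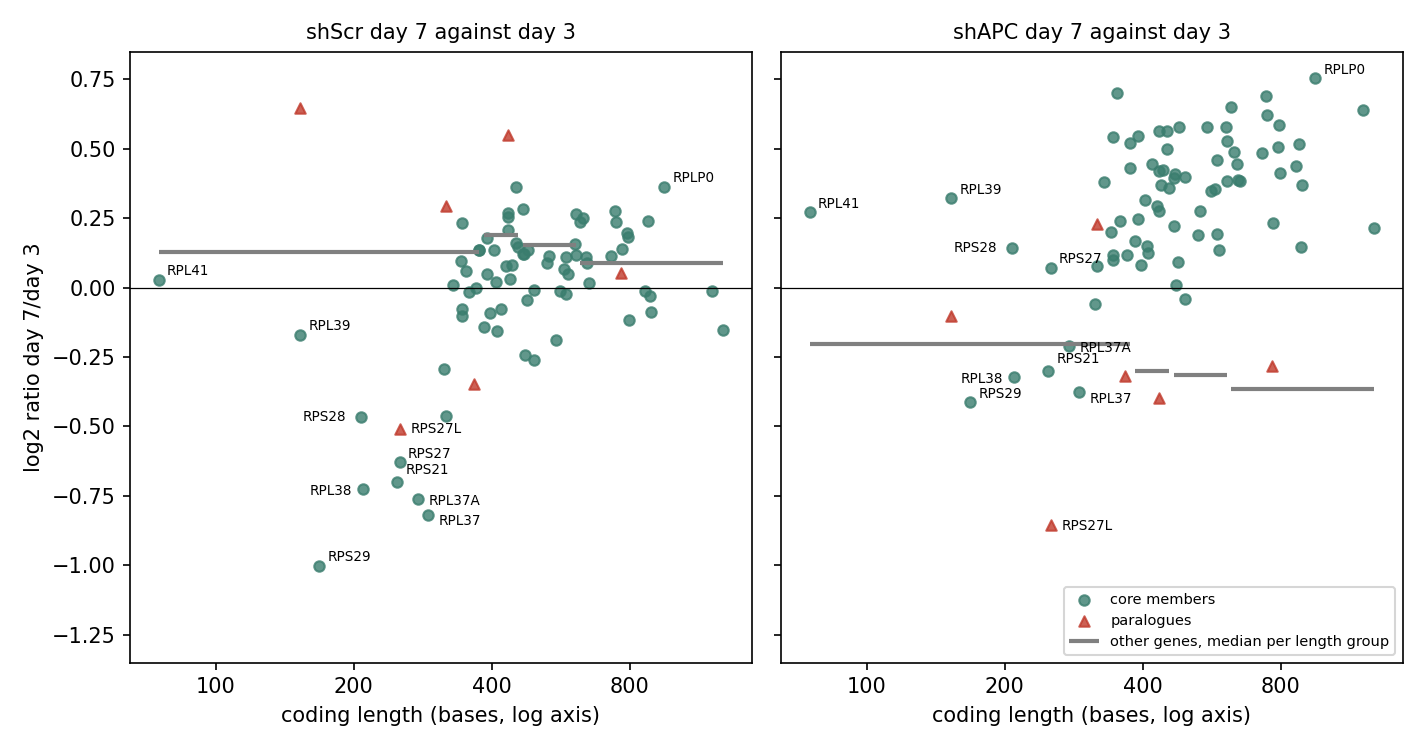
Log2 ratio of CPM between day 7 and day 3 (vertical axis) against coding length in bases (horizontal, log axis) for 82 of the 83 genes in shScr and shAPC, with grey bars at the median of other genes in the same length group. In shScr, RPS29, RPL37, RPL37A, RPL38, RPS21 and RPS27 lie between -1.0 and -0.63, and in shAPC the same genes lie below most longer core genes.

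In cells under 2000 UMIs the medians from the shortest to the longest group were -0.30, -0.01, 0.02 and 0.11 in shScr and -0.16, 0.13, 0.10 and 0.23 in shAPC, so the shortest group was the lowest in both while the middle groups changed places in shAPC. The ratio of shAPC to shScr had medians of -0.18, -0.21, -0.27 and -0.34 at day 3. At day 7 they were 0.19, 0.04, -0.01 and 0.03, where the shortest group stood above the other 3 and these were not in order. In cells of 2000 to under 10000 UMIs at day 7 they were 0.27, 0.08, 0.12 and 0.18. The source of this order was not tested.

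Over all kept cells, the ratios of the paralogues lay apart from those of most core genes. At day 3, 4 of the 6 with sufficient level were above 0 in shAPC against shScr on total UMIs, which no core gene was, although with TMM or DESeq2 size factors only RPL26L1 was, at 0.01 and 0.03. These 4 genes lay above every core gene under each scaling. At day 7 all 6 were below 0 under every scaling, when most core genes were above. Of all genes on total UMIs, 79.2% were above 0 at day 3 and 37.7% at day 7. Relative to all genes, the median of the paralogues was -0.10 at day 3 and -0.25 at day 7. The 4 paralogues that were above 0 at day 3 included the 3 without a pyrimidine run that passed the level (RPS27L, RPL7L1 and RPL26L1), with RPL39L not matched to a start site, while the 2 with a run (RPL22L1 and RPL36AL) were at -0.35 and -0.30, within the range of the core genes. The core genes were all below 0 at day 3, and their order was the opposite, with a median of -0.28 for the 9 without a run against -0.22 for the 53 with one. Genes outside the list had medians of 0.31 (2906 without a run) and 0.22 (1263 with one). Whether the run bears on these ratios was not tested.

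RPL26L1, a near copy of RPL26 on chromosome 5 (84.1% of its 435 coding bases are identical), had 63.1 CPM in shScr day 3, 82.8 in shAPC day 3, 92.9 in shScr day 7 and 62.7 in shAPC day 7. It was thus highest in shScr day 7 and about equal in shScr day 3 and shAPC day 7. Its ratio of shAPC to shScr was 0.39 (0.32 to 0.47) at day 3. By day 7 this stood at -0.56 (-0.65 to -0.48). In cells under 2000 UMIs the ratio at day 3 was -1.39 (-2.72 to -0.28), the opposite direction, and it was 0.52 (0.00 to 1.04), 0.70 and 0.42 in the deeper classes. RPL26 itself had 3834, 3408, 4568 and 5035 CPM, with ratios of -0.17 and 0.14, the opposite direction at each day. In cells under 2000 UMIs and in those of 2000 to under 10000 the ratio of RPL26L1 at day 7 was 0.09 (-0.39 to 0.55) and 0.23 (-0.13 to 0.60), so the lower level in shAPC was seen in deep cells alone, where the counts lie.

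RPS27L, a copy of RPS27 on chromosome 15 that p53 is known to induce, had 1226 CPM in shScr day 3, 1320 in shAPC day 3, 860 in shScr day 7 and 729 in shAPC day 7. Both day 7 libraries lay below both day 3 libraries. Its ratio was 0.11 at day 3, although -0.16 (-0.32 to -0.01) in cells of 2000 to under 10000 UMIs, and -0.24 at day 7, while that of RPS27 was -0.19 and 0.51. Between the days it had -0.51 in shScr and -0.86 in shAPC, the lowest value of any member in shAPC. In cells of 2000 to under 10000 UMIs its ratio between the days was -0.06 (-0.17 to 0.06) in shScr and 0.13 (-0.01 to 0.28) in shAPC, so this difference too lay in deep cells. RPS27 and RPS27L differ at 56 of 252 coding bases and share 0 stretches of 50 bases, so their reads can be told apart.

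RPL39L and RPL39, whose product lines the exit tunnel for the new peptide, are much closer. Their coding sequences, read from the reference (hg38, GENCODE release 44) on the strand of each gene, are shown because 8 of 153 bases (capitals) are all that separates the genes within them.
RPL39: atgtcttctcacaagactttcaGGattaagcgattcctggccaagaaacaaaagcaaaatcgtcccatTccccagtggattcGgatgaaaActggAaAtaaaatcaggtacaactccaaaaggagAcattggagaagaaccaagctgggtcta
RPL39L: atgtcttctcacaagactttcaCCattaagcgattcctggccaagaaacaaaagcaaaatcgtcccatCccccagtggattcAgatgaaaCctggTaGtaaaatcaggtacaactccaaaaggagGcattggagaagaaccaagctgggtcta
Their transcripts shared 18 stretches of 50 bases. RPL39 had 4880, 4431, 4340 and 5538 CPM in the order of libraries used above, and RPL39L had 28.8, 35.7, 45.6 and 33.1. Over all kept cells RPL39L was thus highest in shScr day 7, where RPL39 was lowest. In cells of at least 30000 UMIs this order did not hold. There RPL39L had a ratio of 0.36 for shAPC against shScr at day 3 and of 0.22 for shScr day 7 against day 3. Whether reads of RPL39 were counted for RPL39L was not tested. Of shAPC against shScr, RPL39L had a ratio of 0.30 (0.19 to 0.43) at day 3. By day 7 this was -0.45 (-0.58 to -0.34), and in the deepest cells at day 7 it was 0.01 (-0.17 to 0.19).

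RPL22L1, which can stand in for RPL22, was the most abundant paralogue in all libraries but shAPC day 3. It had 1360 CPM in shScr day 3, 1065 in shAPC day 3, 1068 in shScr day 7 and 855 in shAPC day 7. RPL22 had 1748, 1502, 1584 and 1688 CPM. RPL22L1 was lower in shAPC at both days (-0.35 and -0.32) and lower at day 7 under both shRNAs (-0.35 and -0.32), whereas RPL22 differed by no more than 0.22 in any comparison. In cells of 10000 to under 30000 UMIs, however, the ratio of RPL22L1 at day 3 was 0.05 (-0.05 to 0.15). RPL36AL had 587, 478, 721 and 560 CPM, and was at -0.30 and -0.36 in shAPC against shScr, where RPL36A was at -0.21 and 0.33. RPL7L1, which is known as a factor of ribosome assembly, had 67.6, 80.2, 70.1 and 65.8 CPM, with a ratio of 0.24 (0.17 to 0.32) at day 3. By day 7 this was -0.09 (-0.18 to 0.00), against -0.44 and -0.03 for RPL7.

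RPL3L had 14 UMIs in shScr day 3, 1 in shAPC day 3 and 0 in both libraries of day 7, and RPL10L had 0, 1, 0 and 1. Their partners were among the abundant members, RPL3 at 3373 to 5250 CPM. At this depth no ratio is given for either. RPL39L, at 28.8 to 45.6 CPM, was the member nearest above the level of 20 CPM.

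**Figure D4:**
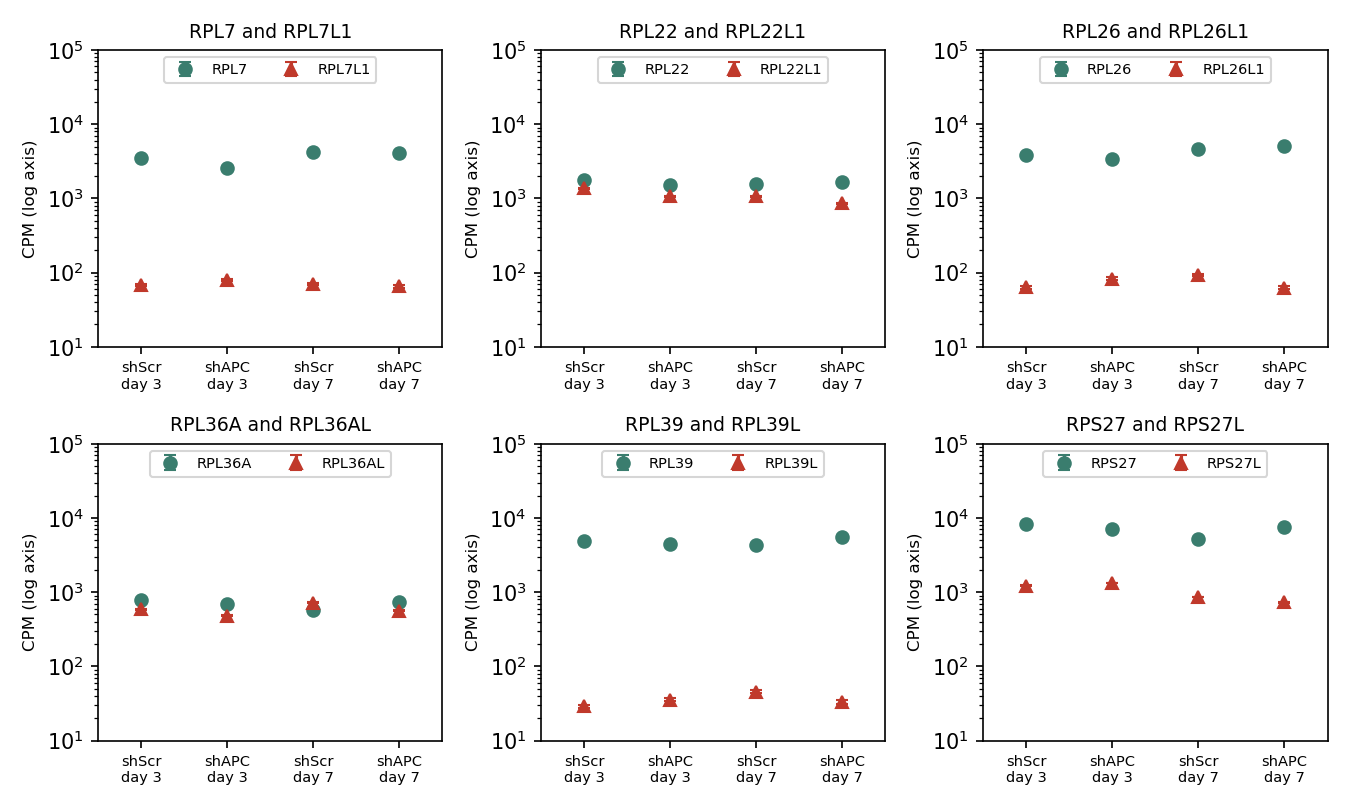
CPM (vertical, log axis) of 6 paralogues (triangles) and their core partners (circles) in the 4 libraries, with 95% counting intervals that are mostly smaller than the symbols. RPL26L1 and RPL39L are highest in shScr day 7, and RPL22L1 and RPL36AL lie closer to the level of their partners than the other paralogues do.

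Genes with related functions were compared from lists that do not overlap the members. FAU, which encodes a ribosomal protein fused to a ubiquitin-like domain, and RACK1, a scaffold on the small subunit, had ratios of -0.10 and -0.23 at day 3 and 0.08 and 0.17 at day 7. RACK1 had 3414 CPM in shScr day 3, 2902 in shAPC day 3, 3338 in shScr day 7 and 3757 in shAPC day 7, the same order as the summed share of the members except between the shScr libraries. Translation factors whose mRNAs are also known to carry a TOP element (16 of 17 passed the level) had medians of -0.28 at day 3, 0.06 at day 7, -0.02 between the days in shScr and 0.31 in shAPC, close to those of the members in each. At day 3, 6 of the 16 were counted as lower (4.75% of all genes) and 0 as higher (43.8%).

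EEF1A1, the elongation factor that brings tRNAs to the ribosome, had 12266, 9215, 11146 and 13334 CPM, lowest in shAPC day 3 and highest in shAPC day 7. Its ratio was -0.41 at day 3 and 0.26 at day 7. EEF2, which moves the ribosome along the mRNA, had 1541, 1282, 1034 and 1433 CPM and ratios of -0.27 and 0.47. EEF1A1 and EEF2 were named after their values were seen.

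Initiation factors outside that class (25 of 26 passed) had medians of 0.18 at day 3, -0.04 at day 7, -0.16 in shScr and -0.41 in shAPC. At day 3, 7 of the 25 were counted as higher and 0 as lower, a smaller share for higher than the 43.8% of all genes. Mitochondrial ribosomal proteins, which make up the separate ribosome of the mitochondrion, had medians of 0.38, -0.24, 0.23 and -0.46 over 70, 64, 63 and 70 of 78 genes. At day 3, 45 of 70 were counted as higher (43.8% of all genes) and 1 as lower (4.75%), and in shAPC between the days 48 were lower (51.5%) and 0 higher (4.73%). Relative to all genes 18 were higher at day 3 (16.3%), and 13 were lower in shAPC between the days (18.6%). Their medians thus had the opposite sign to those of the cytosolic members in the comparisons at day 3, at day 7 and in shAPC, and relative to all genes they were 0.10, -0.14, 0.18 and -0.12.

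**Figure D5:**
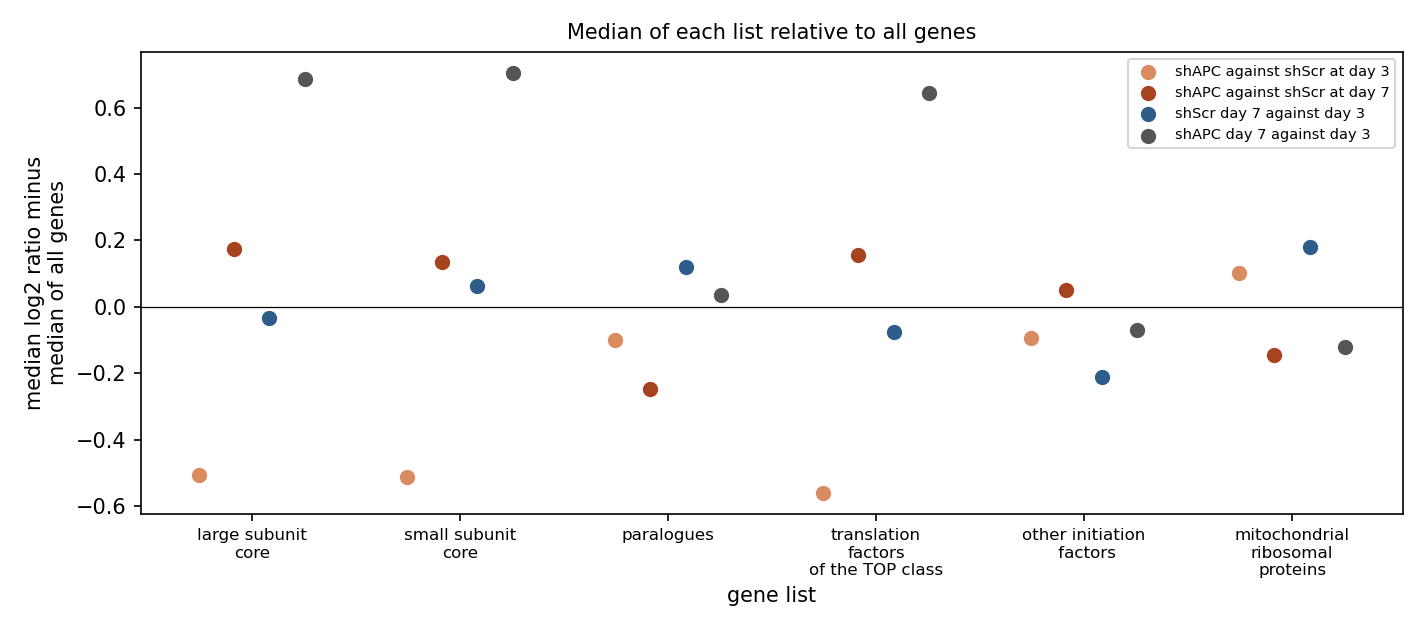
Median log2 ratio of each gene list minus the median of all genes (vertical axis) in the 4 comparisons, for the large and small subunit core genes, the paralogues, translation factors of the TOP class, other initiation factors and mitochondrial ribosomal proteins (horizontal axis). The core genes and the TOP class lie at -0.51 to -0.56 at day 3 and at 0.64 to 0.71 in shAPC between the days, and the other lists lie within 0.25 of 0.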

How the data were processed

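The authors aligned the reads to hg38 with Cell Ranger, and the deposited matrices hold raw UMI counts per gene and barcode. Per the file headers, Cell Ranger 3.0.2 (also in the submitters' processing notes) wrote both shScr matrices and 3.0.0 both shAPC matrices, so version and shRNA cannot be told apart. The labels name a retrovirus and kit v2, the methods a lentivirus and V3.

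Barcodes of at least 200 genes, 500 UMIs and under 5% UMIs of the 13 mitochondrial genes were kept, which left 1116 of 1471 (shScr day 3), 788 of 1047 (shAPC day 3), 2600 of 3652 (shScr day 7) and 1478 of 3035 (shAPC day 7). No doublet caller was run, and leaving out the 5% of cells with most UMIs was an alternative. The imputation and batch correction of the study were not applied.

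UMIs were summed per library and scaled to CPM of kept UMIs, and log2 ratios were formed after adding 1 CPM, for genes that reached 20 CPM in either library of a pair. Ratios have exact conditional binomial (Clopper-Pearson) 95% intervals, and all intervals cover counting error only. With 1 library per group no test was run. The ratios, intervals and calls were checked on simulated counts with known fold changes. These counts held counting error only, so the check does not cover the spread between cultures. Coding lengths are those of the canonical transcripts of GENCODE release 44, and start windows are from RefSeq (GRCh38.p14), which held 68 members and lacked 17.

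The members and lists were chosen with earlier results of these data known. Named are the 5 members of highest mean CPM, the 3 highest and lowest by ratio in each comparison, those at least 0.5 from the members' median, the stalk and 5S particle genes, the paralogue pairs, and FAU and RACK1. An item that this rule also covers is not reported here. Other genes, such as RPL35, RPS13 and RPL21, were named after their values were seen. Alternatives were TMM (edgeR 4.0.16) and DESeq2 1.42.0 size factors, other totals, pseudocount, level limits, cell limits and a mean over cells. Python 3.11.15 with SciPy 1.17.1 and R 4.3.3 were used.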

Additional observations from a re-analysis of the deposited data

Results flagged for a closer look

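On the scale of total UMIs, the ribosomal protein share and RPL26L1 each went in opposite directions at the 2 days. The log2 ratio of the share, shAPC against shScr, was -0.22 at day 3 and 0.09 at day 7. The ratio of RPL26L1 was 0.39 at day 3 and -0.56 at day 7, but at day 3 it was -1.39 in cells under 2000 UMIs. The median of all genes at day 3 was 0.28. With TMM and DESeq2 size factors the ratio of RPL26L1 was 0.01 and 0.03 at day 3, and -0.57 and -0.58 at day 7. Each value compares 1 library with 1 other, so the difference between the days was not tested.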

How the results depend on the processing

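The lower ribosomal protein share and median in shAPC at day 3, the higher ones in shAPC at day 7, and the higher ones at day 7 than at day 3 within shAPC kept their direction under every alternative whose values follow. Within cells of 500 to under 2000 UMIs alone, however, the median at day 7 was -0.015. The values of shScr between the days lie near 0, and all 10 values that changed sign are theirs. Of the other alternative values 127 moved by more than the counting interval, or by more than 1.5 times for a count, and 211 did not. In the values that follow, day 3 and day 7 stand for shAPC against shScr at that day, and shScr and shAPC for day 7 against day 3. The cause of these differences was not tested. Shares of all genes are given for the main setting alone, so the counts of members below cannot be set against them. In cells of 10000 to under 30000 UMIs, the log2 ratio of the share was -0.13 (day 3), 0.092 (day 7), 0.035 (shScr) and 0.25 (shAPC), the median was -0.10 (day 3), 0.088 (shScr) and 0.20 (shAPC), and the median relative to all genes was -0.14 (day 3), 0.062 (shScr) and 0.28 (shAPC). The members counted as higher or lower were 11 (day 3), the members apart from the members' median were 1 (day 3) and 2 (day 7), those higher relative to all genes were 1 (day 3), 1 (shScr) and 39 (shAPC), and those lower relative to all genes were 12 (day 3), 4 (day 7) and 6 (shAPC). With DESeq2 size factors, the log2 ratio of the share was -0.58 (day 3), 0.064 (day 7), -0.031 (shScr) and 0.62 (shAPC), the median was -0.59 (day 3), 0.019 (day 7), 0.017 (shScr) and 0.63 (shAPC), and the median relative to all genes was -0.00040 (shScr). The members counted as higher or lower were 79 (day 3) and 70 (shAPC). With TMM, the log2 ratio of the share was -0.60 (day 3), 0.073 (day 7), -0.058 (shScr) and 0.61 (shAPC), the median was -0.61 (day 3), 0.028 (day 7), -0.0098 (shScr) and 0.63 (shAPC), and the median relative to all genes was -0.00059 (shScr). The members counted as higher or lower were 79 (day 3) and 70 (shAPC). With all deposited barcodes, the log2 ratio of the share was -0.21 (day 3), 0.065 (day 7), 0.0082 (shScr) and 0.28 (shAPC), the median was 0.012 (day 7) and 0.28 (shAPC), and the median relative to all genes was -0.48 (day 3), 0.062 (day 7), 0.036 (shScr) and 0.59 (shAPC). The members apart from the members' median were 2 (day 7). In cells of at least 10000 UMIs, the log2 ratio of the share was -0.22 (day 3), 0.071 (day 7), 0.023 (shScr) and 0.32 (shAPC), the median was 0.029 (day 7), and the median relative to all genes was 0.12 (day 7) and 0.014 (shScr). Those higher relative to all genes were 4 (shScr). With CPM averaged over cells, the log2 ratio of the share was -0.15 (day 3), 0.22 (day 7), -0.15 (shScr) and 0.21 (shAPC), the median was -0.17 (day 3), 0.15 (day 7), -0.077 (shScr) and 0.25 (shAPC), and the median relative to all genes was -0.34 (day 3), 0.28 (day 7), -0.16 (shScr) and 0.47 (shAPC). With totals without mitochondrial and member genes, the log2 ratio of the share was -0.33 (day 3), 0.15 (day 7), 0.0073 (shScr) and 0.49 (shAPC), the median was -0.34 (day 3), 0.10 (day 7) and 0.50 (shAPC), and the members counted as higher or lower were 47 (day 3). With a mitochondrial limit of 10%, the log2 ratio of the share was -0.21 (day 3), 0.062 (day 7), 0.017 (shScr) and 0.29 (shAPC), the median was 0.0087 (day 7), 0.066 (shScr) and 0.29 (shAPC), and the median relative to all genes was -0.48 (day 3), 0.060 (day 7), 0.042 (shScr) and 0.60 (shAPC). The members apart from the members' median were 2 (day 7). Without barcodes shared by libraries, the log2 ratio of the share was -0.21 (day 3) and 0.30 (shAPC), the median was 0.31 (shAPC), and the median relative to all genes was -0.47 (day 3) and 0.63 (shAPC). Without the 5% of cells with most UMIs, the log2 ratio of the share was -0.17 (day 3), 0.095 (day 7), 0.0090 (shScr) and 0.28 (shAPC), the median was -0.18 (day 3), 0.070 (shScr) and 0.30 (shAPC), and the median relative to all genes was -0.39 (day 3), 0.032 (shScr) and 0.56 (shAPC). The members counted as higher or lower were 11 (day 3), and the members apart from the members' median were 1 (day 3) and 2 (day 7). Without the shortest core genes, the log2 ratio of the share was -0.24 (day 3), 0.039 (day 7), 0.10 (shScr) and 0.39 (shAPC), and the median was -0.28 (day 3), 0.020 (day 7), 0.10 (shScr) and 0.38 (shAPC). At a level of at least 100 CPM, the median was 0.35 (shAPC), the median relative to all genes was -0.36 (day 3), 0.19 (day 7), -0.018 (shScr) and 0.60 (shAPC), and the members apart from the members' median were 1 (day 3) and 0 (day 7). Those higher relative to all genes were 0 (shScr), and those lower relative to all genes were 51 (day 3) and 0 (day 7). With no minimum level, the median relative to all genes was -0.46 (day 3), 0.025 (day 7), 0.023 (shScr) and 0.51 (shAPC), those higher relative to all genes were 6 (day 7) and 4 (shScr), and those lower relative to all genes were 4 (day 7). With a pseudocount of 0.1 CPM, the median relative to all genes was -0.00059 (shScr), and the members apart from the members' median were 2 (day 7). The averages over cells have no counting interval and so gave no counts of members. The limits to cells of 10000 to under 30000 UMIs, to barcodes of 1 library and to members without the shortest were chosen after seeing the data. No paired analysis was possible because each group held 1 library. Depth limits the paralogues most, since RPL39L had 943 to 1425 UMIs per library, while RPL3L and RPL10L had at most 14. The version of the counting software coincided with the shRNA, and the day 3 values rest on 1 library of each shRNA, so culture, library and shRNA cannot be told apart.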
